A study of Mus musculus with 2 samples.

Results

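The genes described here belong to the integrated stress response and the p53 pathway and were examined for binding of GABPα in CD4+ T cells. They are Ddit3, Atf4, Atf5, Trib3, Asns, Gadd45a, Gadd45g, Phlda3, Cdkn1a and Trp53, which make 10 of the 21938 protein-coding genes of GENCODE release 21 for the mouse. The genes were listed by name, with earlier results of these data known, though no peak value entered the rule. They include genes that the study names as higher in T cells without GABPα, which are Ddit3, Gadd45g and Phlda3. For each gene, the GABPα peaks within 1000 bp of any of its annotated transcript starts were taken, or else the nearest peak. CD4+ T cells were purified with magnetic beads from wild-type C57BL/6 mice, and the chromatin gave 1 ChIP library with the antibody sc-22810X and 1 input library, which served as the control in peak calling. The study uses the name wild type also for Gabpa f/f littermates without Cre, and which of the 2 gave this chromatin, their age and their number are not given in the sources used here, nor is any treatment of the cells named. The deposited data analysed are 6782 peak intervals that carry no height, score or read count, so here the width of a peak is its only measure, the depth behind it is unknown, and without replicates no error or p-value can be attached to it. Peak intervals give no expression, so the cell type label was not checked against markers.

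GABPα is the DNA-binding subunit of GABP, an ETS family transcription factor that recognises a GGAA core, in the extended form CCGGAAG, and that often occupies the CpG-rich starts of housekeeping genes. In the integrated stress response, kinases that sense amino acid lack, unfolded protein or mitochondrial damage phosphorylate the initiation factor eIF2α, general translation falls, and translation of the transcription factor ATF4 rises. ATF4 then turns on genes such as Ddit3 (CHOP), Atf5, Trib3 and Asns. The p53 protein, encoded by Trp53, is held low by MDM2 and is stabilised on DNA damage, after which it activates genes such as Cdkn1a, Gadd45a and Phlda3.

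GABPα peaks were found at 4 of the 10 genes, Ddit3, Atf4, Atf5 and Trp53, with 5 peaks among them. All 4 encode transcription factors, a trait noted after the peaks were seen and not compared with other transcription factor genes. No peak lay within 1000 bp of a start of Trib3, Asns, Gadd45a, Gadd45g, Phlda3 or Cdkn1a. By the same rule, 3880 of the 21938 protein-coding genes (17.7%) had a peak. CpG-rich starts held peaks more often, with 32.0% of 7820 such genes and 9.77% of the 14118 others, where CpG-rich means at least 50% GC and a CpG observed over expected ratio of at least 0.6 from 500 bp before to 100 bp after the gene start. Of the 10 genes, 5 had a CpG-rich start, and 3 of these (Ddit3, Atf4 and Atf5) had a peak while Trib3 and Phlda3 did not. Trp53, with 49.8% GC and a ratio of 0.458, was the only gene with a peak among the other 5.

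The DNA under the 3 peaks that lie outside annotated untranslated regions is shown to let the matches to the GABP consensus be seen. Each is the mm10 sequence read 5′ to 3′ on the strand of the gene, and capitals mark CCGGAAG or a GGAA core, which reads CTTCCGG or TTCC where it lies on the opposite strand.
Ddit3, chr10:127290567-127290686, plus strand: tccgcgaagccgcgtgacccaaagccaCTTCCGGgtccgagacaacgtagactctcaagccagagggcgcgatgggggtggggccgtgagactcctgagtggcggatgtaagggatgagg
Trp53, proximal peak, chr11:69581156-69581294, plus strand: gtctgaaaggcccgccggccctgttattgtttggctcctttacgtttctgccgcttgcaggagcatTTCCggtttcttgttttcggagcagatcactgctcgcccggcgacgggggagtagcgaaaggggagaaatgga
Trp53, distal peak, chr11:69581366-69581651, plus strand: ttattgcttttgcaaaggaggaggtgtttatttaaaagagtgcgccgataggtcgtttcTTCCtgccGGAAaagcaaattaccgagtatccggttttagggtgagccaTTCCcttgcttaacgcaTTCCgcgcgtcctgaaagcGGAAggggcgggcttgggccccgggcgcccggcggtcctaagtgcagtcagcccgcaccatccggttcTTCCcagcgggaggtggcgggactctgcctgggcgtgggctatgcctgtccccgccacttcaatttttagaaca

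The peaks at Atf4 and Atf5 overlap untranslated regions, so only 27 bases around each GGAA core, in capitals, are shown, on the strand that carries the core.
Atf4, first core, chr15:80255206-80255232, plus strand: tgtaagacaccGGAAattcgtcaacga
Atf4, second core, chr15:80255240-80255266, plus strand: ctccgcgctccGGAAccagaccgcggc
Atf5, chr7:44816174-44816200, plus strand: ccaaattctccGGAAgcacgccctcct

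Ddit3, which encodes CHOP, a stress-induced partner of C/EBP factors, had a peak of 120 bp that ended 88 bp upstream of its start at position 127290774 of chromosome 10. This was the narrowest of the 5 peaks and stood at the 27.1th percentile of all peak widths, whose median was 157 bp in a span of 104 to 5151 bp. Its only GGAA core was a full CCGGAAG, at -180 to -174 bp from the start on the opposite strand. A sequence of the ATF4 and C/EBP composite type, TGATGCAA, lay at -282 to -275 bp, also on the opposite strand, and ended 68 bp short of the peak. All 120 bp fall in an exon of the antisense noncoding gene Gm4189, which has starts 38 and 102 bp from the peak, so the interval alone does not say which of the 2 genes it belongs to. The annotation holds a second, overlapping gene entry named Ddit3, whose start is 143 bp from the same peak and was counted with the first.

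Atf4 encodes the main transcriptional effector of the integrated stress response. Its peak of 234 bp (78.4th percentile) was the only one of the 5 that covered the start of its gene, from 55 bp before to 178 bp after position 80255184 of chromosome 15. The gene start was free of CCGGAAG and of the shorter CGGAAG, and the peak held 2 GGAA cores, CCGGAAA at 33 bp and CCGGAAC at 67 bp after the start, each matching 6 of the 7 consensus bases. These cores lay 27 and 7 bp from the middle of the peak. The 179 bp of the peak inside Atf4 are all annotated as exon and untranslated region.

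Atf5 encodes a related factor whose translation is controlled much as that of ATF4. Its peak of 157 bp (50.2th percentile) lay downstream of the start, 393 to 549 bp into the gene on chromosome 7, and 309 bp from the nearest annotated Atf5 start. Its only core was a full CCGGAAG 0.5 bp from the middle of the peak, on the strand opposite to Atf5. The whole interval is intronic in Atf5 and, at the same time, lies in exonic untranslated sequence of Nup62, a nuclear pore gene transcribed the other way, whose starts are 21, 35 and 118 bp from it. Starts of Il4i1, a secreted amino acid oxidase gene, were 122 and 131 bp away. The Atf5 peak was therefore nearer to annotated starts of Nup62 and Il4i1 than to any start of Atf5.

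Trp53 had 2 peaks, both in an intron downstream of the start at position 69580359 of chromosome 11. The proximal peak of 139 bp (40.6th percentile) began 797 bp after the gene start, and the distal peak of 286 bp (89.4th percentile), the widest of the 5, began 1007 bp after it. Measured from the transcript start at position 69580405, the distances were 751 and 961 bp, which were the values just inside the limit of 1000 bp, whereas the first gene outside it, Trib3, was at 11402 bp. Among the 3880 genes with a peak, the peak covered a start in 3044 (78.5%), and in 110 (2.84%) the nearest edge was more than 500 bp away, as at Trp53. The proximal peak held 1 core, CCGGAAA on the opposite strand, 1.5 bp from its middle. The distal peak held 6 cores, of which GCGGAAG was 3 bp from the middle and 2 others, CCGGAAA and CAGGAAG, also matched 6 of 7 bases. A full CCGGAAG at 652 to 658 bp after the start ended 139 bp short of the proximal peak. A CGGAAG at -80 to -75 bp from the start lay 872 bp from that peak. Neither of these 2 matches was inside a peak, whereas the GCGGAAG of the distal peak holds a CGGAAG. Wrap53, a gene transcribed away from Trp53 on the opposite strand, has a start 901 bp from the proximal peak.

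**Figure D1:**
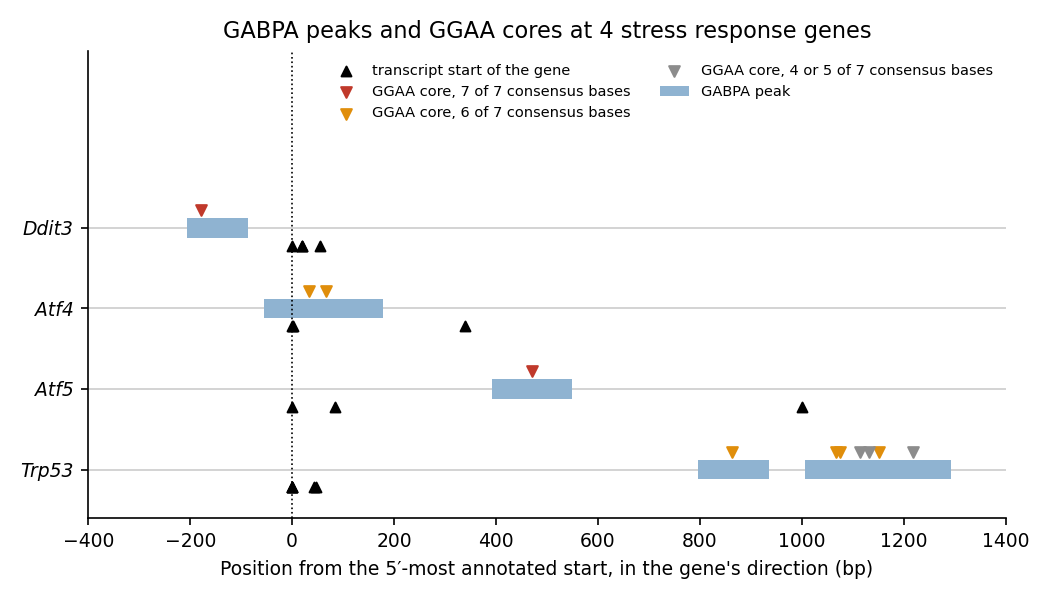
Position of the 5 GABPα peaks (blue bars) at Ddit3, Atf4, Atf5 and Trp53, in bp from the 5′-most annotated start in the direction of each gene, with black triangles for annotated transcript starts and coloured triangles for GGAA cores by the number of bases shared with CCGGAAG. The Ddit3 peak ended 88 bp before the start, the Atf4 peak covered it, and the Atf5 and first Trp53 peaks began 393 and 797 bp after it.

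Full consensus matches were thus held by 2 of the 5 peaks (Ddit3 and Atf5), and GGAA cores by all 5. The shorter CGGAAG was held by 3 of the 5, and by 74.4% of all peaks within 1000 bp of an annotated start. Among the 3676 peaks within 1000 bp of any annotated start, 55.1% held CCGGAAG, whereas 0.837% did of 7291 equally wide, peak-free windows that lay 2000 bp to either side of these same peaks. The sequences found at Atf4 and Trp53 were also frequent in such peaks, with CCGGAAA in 16% of them and 0.645% of their flanking windows, CCGGAAC in 13.1% and 0.453%, and GCGGAAG in 27% and 0.466%. CAGGAAG occurred in 16.6% of such peaks and in 7.16% of the windows beside them. The bare GGAA core separated them far less, since 97.8% of such peaks and 85.9% of the windows beside them held it. The flanking windows also differ from start peaks in position and base composition, whose part in these shares was not tested. Of the start peaks, 942 (25.6%) lacked even CGGAAG, and 298 of these (31.6%) held CCGGAAA or CCGGAAC. The Atf4 peak was 1 of the 25 that held both.

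The widths of the 5 peaks, in increasing order, were 120, 139, 157, 234 and 286 bp, with a median of 157 bp. This equals the median of all 6782 peaks and is below the 207 bp of the 3676 peaks at annotated starts. Ddit3, the proximal Trp53 peak and Atf5 were below that second median, and Atf4 and the distal Trp53 peak above it. None of the 5 overlapped bases masked as repeats, and every 36-base sequence in them, the length of the reads, occurred at a single place in the genome. Peaks at 2 of the 4 genes, Atf5 and Trp53, were also within 1000 bp of a protein-coding transcript start of another gene, which held for 1287 of the 3880 genes with a peak (33.2%).

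**Figure D2:**
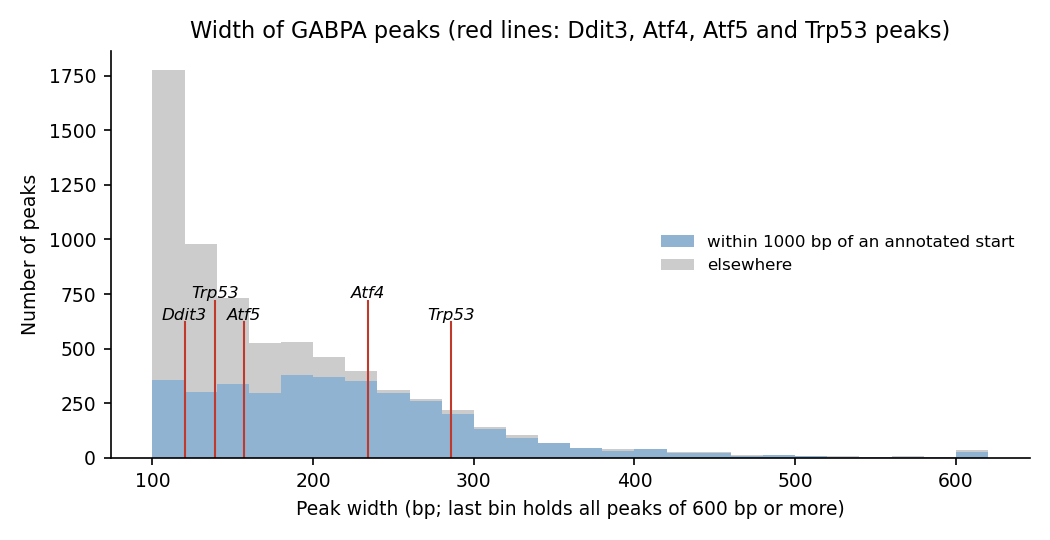
Number of GABPα peaks by width in bp, in bins of 20 bp with peaks within 1000 bp of an annotated start in blue and the others in grey, and red lines at the widths of the peaks at Ddit3, Atf4, Atf5 and Trp53. Ddit3 (120 bp) was among the narrow peaks of the list, and the distal Trp53 peak (286 bp) was at the 89.4th percentile.

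The other 6 genes encode effectors and feedback regulators of the 2 responses. Trib3, a pseudokinase induced by ATF4 and CHOP, came nearest, with a peak 11464 bp downstream of its start, beyond the gene. That peak was 231 bp wide, held 3 copies of CCGGAAG and covered annotated starts of Rbck1, a gene of the linear ubiquitin ligase complex. The start of Trib3 held a CGGAAG of its own, 43 to 48 bp after the first base, with no peak there.

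Cdkn1a encodes p21, the cyclin-dependent kinase inhibitor through which p53 halts the cell cycle. Its nearest peak was 81247 bp from the gene start, or 74323 bp from its most downstream transcript start, and no annotated start of any gene was within 1000 bp of that peak. It was 214 bp wide (72.1th percentile), lay in an intron of Cpne5 on chromosome 17, and held 8 GGAA cores and 2 copies of CGGAAG but no CCGGAAG. Its sequence is shown because, of the nearest peaks away from any start, it was the only one with CGGAAG, and capitals mark GGAA or, for the opposite strand, TTCC.
Cdkn1a, nearest peak, chr17:29172223-29172436, plus strand: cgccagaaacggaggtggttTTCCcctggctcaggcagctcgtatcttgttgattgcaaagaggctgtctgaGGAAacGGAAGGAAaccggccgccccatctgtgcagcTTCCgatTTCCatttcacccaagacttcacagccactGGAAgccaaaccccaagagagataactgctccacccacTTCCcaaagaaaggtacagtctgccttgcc

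Gadd45a and Gadd45g encode small growth arrest proteins induced by DNA damage and other stresses. The nearest peak to Gadd45a was 229391 bp away, where a peak of 245 bp with 1 CCGGAAG covered starts of Serbp1, an mRNA-binding protein gene. The nearest peak to Gadd45g was 179816 bp away and only 107 bp wide (14.0th percentile), outside annotated genes and without CGGAAG. It held 4 cores, each within CAGGAAG, at spacings of 21, 22 and 22 bp, and is shown to make this short repeat visible, with the cores in capitals.
Gadd45g, nearest peak, chr13:52026494-52026600, plus strand: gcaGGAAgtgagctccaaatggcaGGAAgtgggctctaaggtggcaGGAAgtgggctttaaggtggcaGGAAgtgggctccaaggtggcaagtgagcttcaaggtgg

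Phlda3, a p53 target that restrains Akt signalling, had its nearest peak 106354 bp upstream. That peak was 104 bp wide, the smallest width in the list, and had 2 GGAA cores and no CGGAAG. Asns, the asparagine synthetase gene that ATF4 induces when amino acids are short, had its nearest peak 207037 bp away. That interval of 162 bp was masked as a repeat over its whole length, held no GGAA core, and only 25.2% of its 36-base sequences occurred at a single place in the genome. Among peaks less than 50% masked, the nearest to Asns was 565893 bp away.

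**Figure D3:**
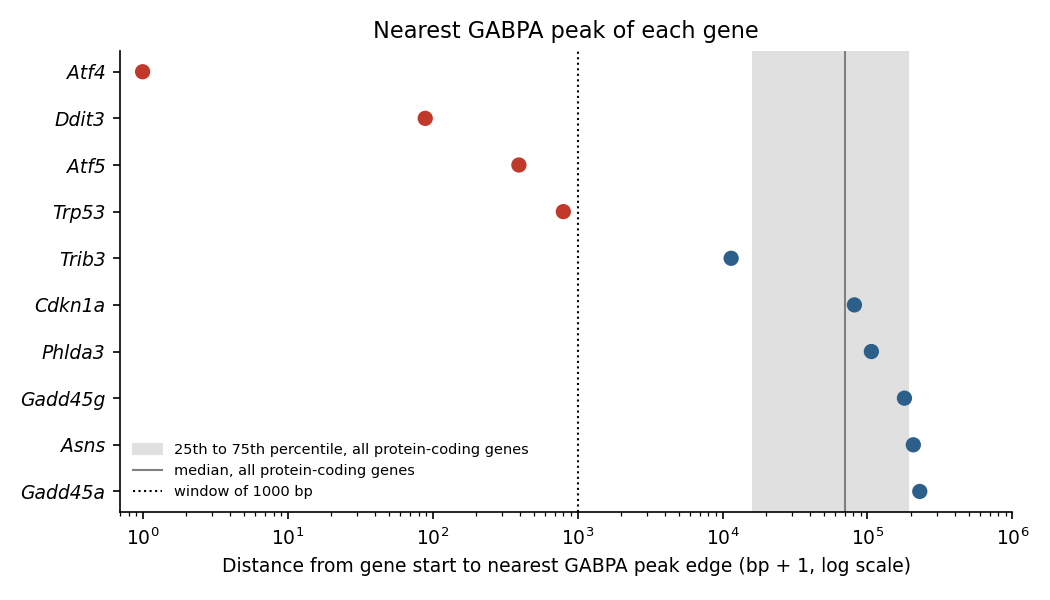
Distance from the gene start to the edge of the nearest GABPα peak for each of the 10 genes, in bp plus 1 on a log axis, in red for the 4 genes with a peak inside the 1000 bp limit and in blue for the others. The grey band runs from the 25th to the 75th percentile of all protein-coding genes and the line in it is their median of 70473 bp, and Gadd45a and Asns lay beyond the band.

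Over all protein-coding genes, the gene start was at a median of 70473 bp from a peak, and the 75th percentile was 189601 bp. Trib3 was closer than most genes (22.3rd percentile), Cdkn1a and Phlda3 were near the middle (53.4th and 59.8th), and Gadd45g, Asns and Gadd45a were at the 73.7th, 77.1th and 79.5th percentiles. Sequence around the starts of these 6 genes was largely unique at the length of the reads. Within 1000 bp of the start, between 98.2% and 100% of the 36-base sequences of Asns, Gadd45a, Gadd45g, Phlda3 and Cdkn1a occurred at a single place in the genome, and 92.8% of those of Trib3.

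Sequence at the starts was searched from 500 bp before to 100 bp after the gene start, on both strands. CCGGAAG was at the start of 1 of the 10 genes, Ddit3, and of 13.8% of all protein-coding genes, of which 62.4% had a peak. CGGAAG was at 3 of the 10, Ddit3, Trib3 and Trp53, and at 26.7% of all, of which 45.2% had a peak. TGATGCAA was at Ddit3 and Gadd45g and at 1.68% of all genes, of which 11.1% had a peak. In Gadd45g it lay at -104 to -97 bp from the start. The ER stress element (CCAAT and CCACG 9 bp apart) was at none of the 10 genes and at 0.137% of all, and the cAMP response element TGACGTCA was at none of the 10 and at 2.76% of all.

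The rest of both pathways was read from 5 lists of 117 genes in all, of which 33 had a peak by the same rule. The lists leave out the 10 genes described above. The list of ATF4 targets thus lacks Ddit3 and Atf5, which had a peak, and Trib3 and Asns, which had none. The counts are descriptions beside the 17.7% of all protein-coding genes and the 32.0% of those with CpG-rich starts, and no test of a difference between lists was made. Peaks were at 12 of 20 genes that sense or control the integrated stress response, and 10 of 24 of the ER unfolded protein response. They were at 6 of 17 that control p53, at 5 of 31 targets of p53 and 0 of 25 targets and partners of ATF4. In that order, 14, 20, 12, 18 and 10 genes had a CpG-rich start. Of these, 10, 9, 4, 4 and 0 had a peak.

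Among the genes that sense or control the integrated stress response, Eif2ak1, the haem-regulated eIF2α kinase, had a peak of 270 bp. Gcn1, which activates the kinase of amino acid starvation, had a peak of 214 bp. Eif2b2, a subunit of the exchange factor eIF2B, had the widest peak of the lists at 343 bp. Dele1, which relays mitochondrial stress to the kinase Eif2ak1 encodes, had a peak of 204 bp. Each of these 4 peaks covered its gene's start and held CCGGAAG. The other 8 genes with a peak, named after their values were seen, were Eif2s1, Eif2s3x, Eif2b1, Eif2b4, Ppp1r15b, Oma1, Impact and Nck1. The peaks at Eif2s1, Eif2b1 and Eif2b4 also lay near a protein-coding start of another gene. The other 3 eIF2α kinase genes, Eif2ak2, Eif2ak3 and Eif2ak4, had none. In this list 7 of the 12 genes had CCGGAAG in the widest peak, beside 55.1% of all peaks at annotated starts. The widths ran from 163 to 343 bp.

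In the unfolded protein response, Pdia6, a protein disulphide isomerase gene, and Mbtps2, a protease gene that releases ATF6, had peaks of 197 and 194 bp that covered the start and held CCGGAAG. Peaks were also at Hspa5 (BiP), Hsp90b1, Hyou1, Dnajb9, Dnajb11, Creld2, Syvn1 and Atf6b, named after their values were seen. Xbp1, Atf6 and Ern1, likewise named afterwards, had none. The peaks at Hsp90b1, Dnajb11 and Creld2 also lay near a protein-coding start of another gene. CCGGAAG was in the peaks of 7 of the 10 genes with a peak, beside 55.1% of all peaks at annotated starts.

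Around p53, peaks were at Mdm2, Mdm4, Atm, Kat5, Rchy1 and Cop1, which encode ubiquitin ligases, a kinase and an acetyltransferase that act on p53 and the ligase-like regulator MDM4. The Mdm4 peak was 5092 bp from the gene start and counted through another transcript start, so that with the 5′-most start alone 5 of the 17 genes had a peak. The Mdm2 peak covered the gene start and held CCGGAAG but was 110 bp wide, below the median width. The Atm peak also lay near a protein-coding start of Npat. The 5 p53 targets with a peak were Ddb2, Gtse1, Bid, Ercc5 and Fdxr, with widths of 194 to 285 bp. CCGGAAG was in 4 of the 5, beside 55.1% of all peaks at annotated starts. All of these names were chosen after their values were seen. Gadd45b, the third gene of its family, had no peak.

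Among the 25 targets and partners of ATF4, from amino acid transporters (Slc7a11, Slc7a5, Slc3a2) and serine synthesis enzymes (Phgdh, Psat1, Psph) to Atf3, Chac1 and Ddit4, the closest peak was 9737 bp from a gene start (Aldh1l2) and the median distance was 46452 bp. Of the 25, 10 had a CpG-rich start and 2, Slc7a5 and Shmt2, held CCGGAAG there. TGATGCAA was at the start of 3, Chac1, Slc7a11 and Fgf21. No peak appeared at these 25 genes under any window up to 5000 bp.

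**Figure D4:**
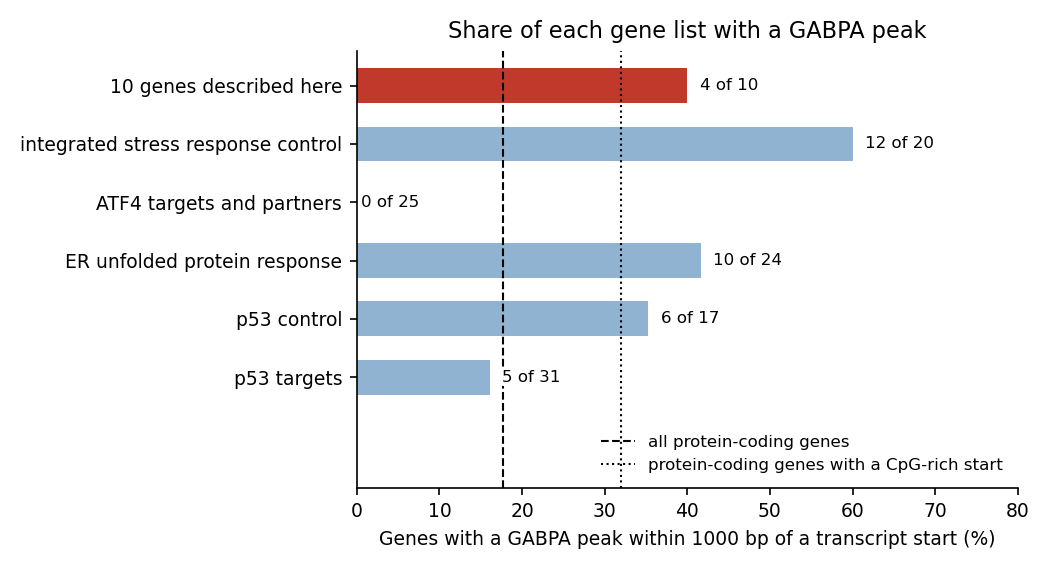
Percentage of genes with a GABPα peak no more than 1000 bp from a transcript start for the 10 genes described here (red) and for the 5 pathway lists (blue), with the numbers of genes beside the bars and lines at the share of all protein-coding genes (dashed, 17.7%) and of those with a CpG-rich start (dotted, 32.0%). The bars run from 0 of 25 targets and partners of ATF4 to 12 of 20 genes that control the integrated stress response. The lists leave out the 10 genes, so Ddit3 and Atf5 are not in the ATF4 bar.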

How the data were processed

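One GABPα ChIP library of CD4+ T cells was read with 1 input library as control. Per the methods of the study and the labels, the authors used Trimmomatic to trim reads of 36 bp, Bowtie to place them on mm10 and MACS2 to call peaks against the input; versions are not given in the sources used here. The authors deposited peak intervals as start and end positions, without signal, score or count, and starts were read as 0-based. The reads of either library were not used here. How the calling threshold and depth set which weak sites became peaks could not be examined.

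Distances run from a peak edge to the 5′-most start of the gene or to annotated transcript starts (GENCODE release 21 for mouse, GRCm38, 21 chromosomes) and are 0 where the peak covers the start. Sequence came from the RefSeq copy of GRCm38. Motifs are exact matches on both strands. Flanking windows lay 2000 bp from each peak. Gcn1 was matched through its older symbol Gcn1l1. Named genes were the 10 genes, genes sharing or starting at their peaks, and, from each list, up to 6 genes whose peak was at least of median width, covered the start and held CCGGAAG. All further list genes were named after their values were seen. Members and lists were chosen with earlier results of these data known, and the CpG-rich class was added after seeing the data. The distance, motif and uniqueness steps were tested on simulated data with planted answers. Alternatives changed the window, the starts used, the peaks kept, the motif and the searched span. Python 3.11.15, pandas 2.3.3, pysam 0.24.0 and samtools 1.23.1 were used.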

Additional observations from a re-analysis of the deposited data

How the results depend on the processing

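When peaks below the upper quartile of width were dropped, 2 of the 10 genes (Atf4 and Trp53) and 14 of the 117 list genes had a peak, and 8.41% of all protein-coding genes. With a window of 500 bp, Trp53 was lost and Ddit3, Atf4 and Atf5 were left, beside 17.2% of all protein-coding genes. With peaks at or above the median width Ddit3 was lost, and 14% of all protein-coding genes had a peak. GGAA in place of CCGGAAG was held by 5 of the 5 peaks. CCGGAAG within 1000 bp on either side of the start was at 3 genes (Ddit3, Atf5 and Trp53). For that span no share over all genes is given here. CGGAAG from 500 bp before to 100 bp after the start was also at 3 (Ddit3, Trib3 and Trp53), and at 26.7% of all protein-coding genes. Those counts of 3 genes, at 500 bp and at the median width, are among 28 recomputed values of these results, 2 of them added after seeing the data, that were within 1.5 times of those given. Of the values for single genes and single lists, 73 were within 1.5 times, 3 were higher and 4 lower: the higher ones were distances of Ddit3 (20887 bp) and Phlda3 (452219 bp) with peaks at or above the median width, and of Asns among peaks less than 50% masked, and the lower ones were list counts at the upper quartile of width. No paired analysis was possible because there was 1 ChIP library and no test. Depth is unknown, so a missing peak may be a site below the calling threshold.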
